A study of Homo sapiens with 8 samples.

Results

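Untreated cells of the line 231BrM were compared with untreated cells labelled SKBrM3, across every gene that the array measures with a probe set naming 1 gene. The members are the 2 arrays titled 231BrM without doxycycline and the 2 arrays titled SKBrM3 without doxycycline, 4 of the 8 arrays of the series, and 45253 of its 49386 probe sets name 1 gene. Both lines are human breast cancer cell lines and, per the series design, both carry a short hairpin against the receptor tyrosine kinase MET that doxycycline switches on. The 4 untreated arrays therefore come from cells that hold the hairpin without its inducer, and the other 4 arrays come from the same lines after 48 h with doxycycline, labelled as 100 ng without a volume. The labels describe culture in DMEM with fetal bovine serum and Trizol extraction of total RNA. Each line is represented by 1 derivative. Whether replicates are separate cultures is not stated, and p-values rest on the scatter of these arrays alone, which may be technical.

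As background, MDA-MB-231, from which lines called 231BrM were derived by selection for growth in the brain of mice, is a triple-negative breast cancer line with mesenchymal features: it has high vimentin and CD44 and little cell-cell adhesion machinery of epithelium. SKBR3, from which lines called SKBrM3 were derived, is a luminal line driven by amplification of ERBB2, the gene of the receptor HER2, and of its neighbours on chromosome 17, and it has keratins of simple epithelium, ERBB3 and claudins. Brain-metastatic derivatives are studied for the proteases, adhesion molecules, prostaglandin and cytokine signals that help tumour cells cross vessels and live beside astrocytes.

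A value is the log2 of a probe set's signal after the authors' RMA processing, and a difference is always 231BrM minus SKBrM3-labelled, so that a positive difference means higher in 231BrM. A gene was tested where at least 2 of the 8 arrays read above 4.41, which is the 40th percentile over all values and is called the filter level here. Of 18239 genes, 13002 were tested. A gene is called where limma's adjusted p (Benjamini-Hochberg over all genes tested) is under 0.05. Arrays of the same untreated line correlated over all genes tested at 0.998, and arrays of different lines at 0.962 to 0.964. Only 1 gene differed by over 2-fold between the replicate arrays of either untreated line. The actin control probe sets had a 3' minus 5' signal of 0.52 to 0.59 log2 units on the 4 untreated arrays.

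The markers of the label were checked first, and on the arrays labelled SKBrM3 neither ERBB2 nor its tested neighbours read above 231BrM by over 2-fold, whereas amplification of this region defines SKBR3 cells. ERBB2, which encodes HER2, read 6.87 and 6.76 on the 231BrM arrays and 6.70 and 6.72 on the SKBrM3-labelled arrays. The difference of 0.10 (95% interval -0.11 to 0.32) did not pass the test (limma adjusted p = 0.418). GRB7, an adaptor protein co-amplified with ERBB2 in SKBR3 cells, read 5.09 and 5.12 against 5.14 and 5.19. The arrays of the lines did not overlap in either gene, as in 76.8% of all genes tested, and GRB7 was not called either (limma adjusted p = 0.778). Among 12 tested neighbours of ERBB2 on chromosome 17, 0 were called higher and 2 lower in 231BrM, where 19.8% of all 13002 genes tested were called higher and 19.9% lower. The 2 were MIEN1 (difference -0.73) and PGAP3 (-0.31). PGAP3 was not called when any one untreated array was left out (-0.37 to -0.26). At an unadjusted p under 0.05 the count was the same, 0 higher and 2 lower. ERBB3, the partner receptor of HER2, the splicing regulator ESRP1, the small GTPase RAB25, the transcription factor TFAP2B and the tight junction protein CLDN3 stayed under the filter level on all 4 arrays.

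Of 20 tested members of the SKBR3 marker list, 9 were higher and 4 lower in 231BrM. The number lower was 2 without 231BrM replicate 1 or 2 or SKBrM3-labelled replicate 2. The keratins of simple epithelium were among the higher. KRT19 read 9.42 and 9.40 on the 231BrM arrays and 6.74 and 6.89 on the SKBrM3-labelled arrays, a 6.03-fold difference (limma adjusted p = 8.84e-07). KRT7 read 8.13 and 8.01 against 6.20 and 6.14, and KRT18 11.25 and 11.20 against 10.54 and 10.64. In all 3 the lines' arrays do not overlap, as in 76.8% of all genes tested. The transcription factor SPDEF (0.83) and the junction protein CLDN7 (0.79) were higher in 231BrM as well. KRT8 had a difference of 1.07, with a standard error of 0.28. On KRT8 the 231BrM doxycycline replicate 1 read 8.43, and the fit shares its spread with all 8 arrays. The gene was not called when any one untreated array was left out (limma adjusted p up to 0.0788). The luminal pioneer factor FOXA1 ran the other way, at 5.03 and 5.01 against 6.39 and 6.38 (difference -1.37, standard error 0.16). The other lower members were MIEN1, PGAP3 and GRHL2 (-0.29), and GRHL2 too was not called when any one untreated array was left out. EPCAM, an epithelial adhesion molecule, read 6.21 and 6.36 against 6.46 and 6.11, and those arrays overlap.

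Several of the mesenchymal genes that mark MDA-MB-231 cells were high on all 4 arrays, VIM, CD44, AXL and ZEB1 among them, while TWIST1 lay under the filter level and N-cadherin, CDH2, read 4.56 to 4.80. Vimentin, VIM, read 12.87 and 12.91 on the 231BrM arrays and 12.72 and 12.78 on the SKBrM3-labelled arrays. The hyaluronan receptor CD44 read 11.61 and 11.56 against 11.40 and 11.42, the receptor tyrosine kinase AXL 11.60 and 11.43 against 11.38 and 11.29, and the repressor of epithelial genes ZEB1 8.69 and 8.78 against 8.99 and 8.85. None of these 4 was called, although CD44 was called when the mean of all its probe sets was taken (0.49) or arrays were weighted. Of 20 tested markers of MDA-MB-231 cells, 8 were higher and 2 lower in 231BrM (FN1 and TGFBR2), and 10 were not called. FN1 was the 1 lost without 231BrM replicate 2 or SKBrM3-labelled replicate 1 or 2. SPARC, a matrix protein, showed the largest difference of the list, at 7.07 and 6.83 against 4.19 and 4.24, and its SKBrM3-labelled level lies under the filter level. SNAI2, a repressor of E-cadherin, was 2.45-fold higher in 231BrM and TGFBR2, a receptor for TGF-beta, 1.59-fold lower. EGFR read 9.62 and 9.70 against 9.01 and 9.09, without overlap, yet its difference of 0.61 was not called (limma adjusted p = 0.349). The 231BrM doxycycline replicate 1 read 8.04, and without either 231BrM doxycycline array the limma adjusted p was 0.002. The arrays labelled SKBrM3 are therefore named by their label throughout. The comparison is between 2 sets of arrays that both carry these mesenchymal markers.

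**Figure D1:**
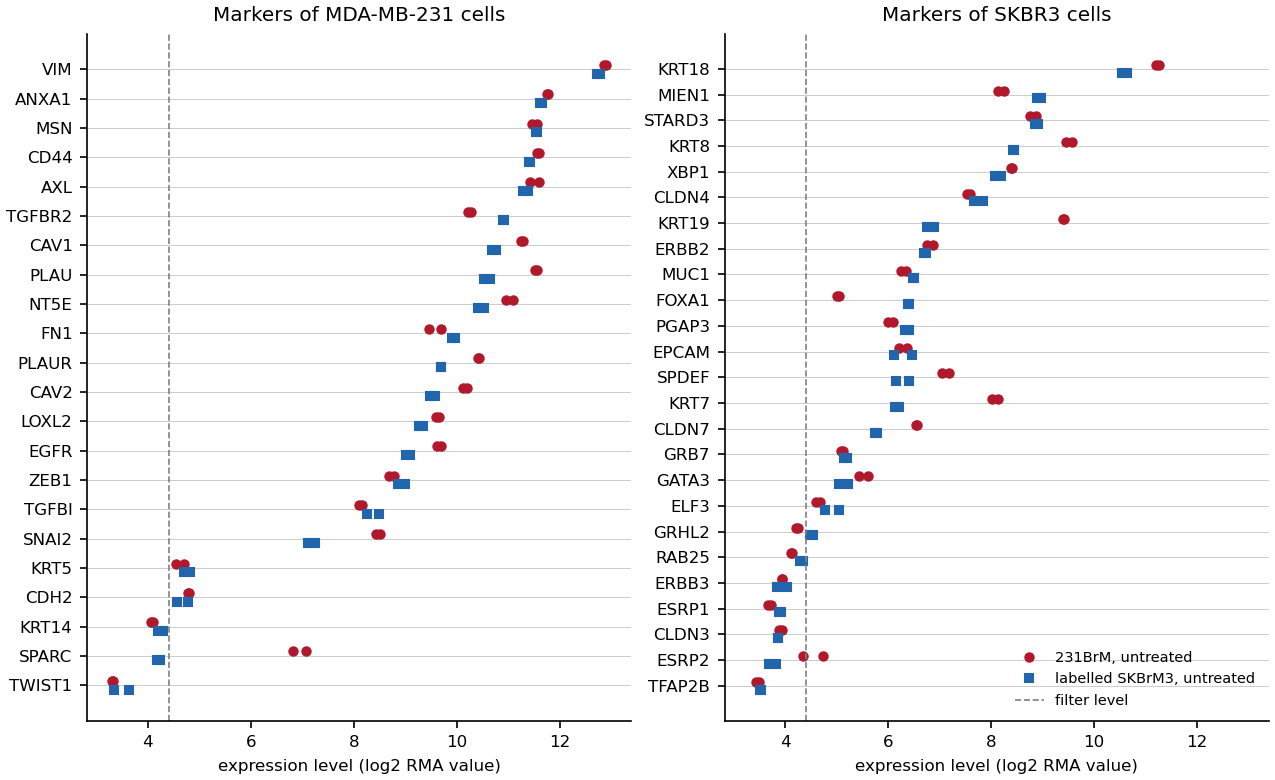
Expression level (log2 RMA value) of markers of MDA-MB-231 cells (left) and of SKBR3 cells (right) on the 4 untreated arrays, with red circles for 231BrM, blue squares for the arrays labelled SKBrM3, 1 symbol per array, and a dashed line at the filter level of 4.41. VIM, CD44 and AXL are high in both groups, the 4 arrays lie within 0.2 log2 units for ERBB2 and for GRB7, and KRT19 and KRT7 are higher in 231BrM.

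Of 20 markers of other cell types, 9 did not pass the filter on low values. Of 11 tested markers of leukocytes, endothelium, fibroblasts, astrocytes and neurons, 1 was called higher (COL1A1, 0.47) and 2 lower (PDGFRA, -0.40, and RBFOX3, -0.65), and the mean of each of the 3 was at most 5.18 in either group. Another RBFOX3 probe set gave 0.018. Of those not called, SNAP25 of neurons read 5.94 to 6.12 and PECAM1 of endothelium and leukocytes 5.54 to 5.69 on the 4 arrays. PTPRC, the leukocyte common antigen, CDH5 of endothelium and DCN of fibroblasts lay under the filter level on all 4 arrays. COL1A1 was not called without 231BrM replicate 1 (0.35) or SKBrM3-labelled replicate 2 (0.39), and PDGFRA was not called without replicate 2 of either line (-0.29 and -0.30). In bulk RNA, fewer cells that express a gene and less of its RNA per cell cannot be told apart.

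Over all genes the lines differed at many loci, mostly by little. Of 13002 genes, 5167 (39.7%) were called, 2580 higher (19.8%) and 2587 lower (19.9%) in 231BrM. Of these, 4464 lay within 2-fold. The remaining 703 (5.41%) differed by over 2-fold, 470 of them higher (3.61%) and 233 lower (1.79%). Differences over 8-fold were called for 33 genes higher and 6 lower in 231BrM. In 101 of the 703 the lower line's mean lay under the filter level, so that their fold is limited by low signal. The arrays of the lines did not overlap for 9988 genes (76.8%, with 231BrM above in 33.2% and below in 43.6%), and 6350 genes (48.8%) had an unadjusted p under 0.05. Non-overlap stated for single genes was thus the more frequent case. Other probe sets of the 703 genes that pass the filter had the same sign in 939 of 973 cases, and those of all called genes in 6676 of 7305. The number of calls fell whichever untreated array was left out, which leaves 1 array in its group. Of the 703 genes over 2-fold, 700 to 703 kept their call when any one of the 8 arrays was left out. Every count of a list is to be read beside the shares over all genes tested, 19.8% higher and 19.9% lower. Counts of lists that moved by over 1.5 times on leaving out an array are given with the array, or with the gene that lost its call, and an array without the word doxycycline is an untreated one.

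The genes with the largest excess in 231BrM encode a mix of surface, secreted and tissue-restricted proteins. ADGRF5, an adhesion G protein-coupled receptor, read 10.29 and 10.24 on the 231BrM arrays and 4.46 and 4.31 on the SKBrM3-labelled arrays, a difference of 5.88 (standard error 0.089, limma adjusted p = 3.87e-09). PAGE5, a cancer-testis gene, read 9.79 and 9.63 against 4.12 and 3.95. GJA1, which encodes the gap junction protein connexin 43, read 8.98 and 8.94 against 3.35 and 3.26. Of the 15 genes with the largest positive differences, 11 had a SKBrM3-labelled mean under the filter level, these 3 among them, so that their folds are limited by low signal. TGM2, a transglutaminase that crosslinks matrix proteins, had a difference of 5.52, SHISA2, an antagonist of Wnt and FGF signalling, of 5.43, and EPB41L3, a membrane skeleton protein, of 5.26. EHF, an ETS factor of epithelial cells, had 5.08, and IGFBP3, which binds insulin-like growth factors, 4.45. HMGN5, a nucleosome-binding protein (4.30), the kinase NRK (4.02), the cytokine IL1A (3.98), BEX5 (3.84), the matrix protein MATN2 (3.74), the mesenchymal cadherin CDH11 (3.69) and the thrombospondin THBS2 (3.63) completed the 15 largest. For several of them other probe sets gave a smaller difference: 0.60 for GJA1, 0.031 to 1.75 for CDH11, 0.72 to 2.17 for TGM2, 1.51 for SHISA2, 0.45 to 4.90 for EHF, 0.92 to 2.28 for NRK and 1.38 to 6.09 for ADGRF5. The range was 5.97 to 6.01 for PAGE5, for IGFBP3 4.58 and for EPB41L3 3.47 to 4.76.

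The genes with the largest deficit in 231BrM included a pair best known from blood cells. LCP1, the actin-bundling protein L-plastin, read 6.08 and 6.24 on the 231BrM arrays and 11.11 and 11.14 on the SKBrM3-labelled arrays, a difference of -4.97 (standard error 0.10, limma adjusted p = 2.45e-08). FERMT3, which encodes the integrin activator kindlin-3, read 4.81 and 5.0 against 7.25 and 7.27. The leukocyte antigen PTPRC was under the filter level in both lines. VCAN, the large matrix proteoglycan versican, read 4.26 and 4.40 against 8.96 and 8.82, and every probe set of it that passes the filter was lower in 231BrM (-4.98 to -2.95). Next came PTPRN2, a protein of secretory granules (-4.21), the neuropeptide galanin, GAL (-3.83), and FGF13, an intracellular FGF homologue that binds sodium channels (-3.33). DLC1, which switches off the GTPase RhoA, differed by -2.98, the scaffold protein AKAP12 by -2.97 and the inflammasome sensor CARD8 by -2.94. The others of the 15 were MIG7 (-3.20), the dynein assembly factor DNAAF3 (-2.85), the calcium channel subunit CACNA2D4 (-2.62), the fatty acid desaturase SCD (-2.53), dystrophin, DMD (-2.44), and the esterase AADAC (-2.36). The 231BrM means of VCAN, PTPRN2, MIG7, DNAAF3, DMD and AADAC lay under the filter level. Other probe sets gave -0.69 to -0.30 for DMD, -1.67 to -0.66 for CACNA2D4, -2.25 for GAL and -2.16 to -1.66 for FGF13.

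**Figure D2:**
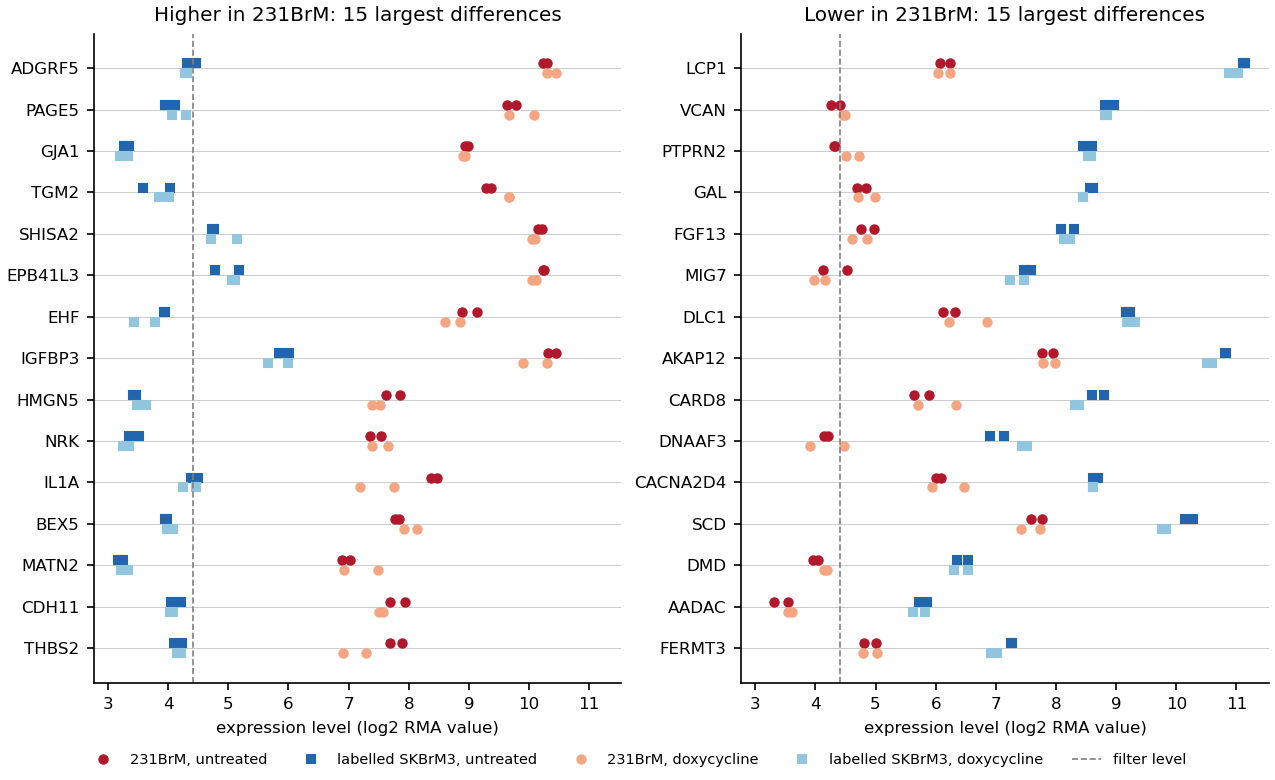
Expression level (log2 RMA value) of the 15 called genes with the largest positive and the 15 with the largest negative difference, 1 symbol per array for all 8 arrays, untreated arrays in dark and doxycycline arrays in pale colours just beneath; the dashed line is the filter level of 4.41. The untreated groups are separate by selection, since only genes whose untreated arrays do not overlap between the lines were taken. With doxycycline the circles of 231BrM and the squares of the SKBrM3-labelled arrays also form separate groups. LCP1 read 6.08 and 6.24 against 11.11 and 11.14 untreated.

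Among the most abundant transcripts, 10 stood out by level and difference. FSTL1, a secreted glycoprotein, read 11.87 and 11.87 on the 231BrM arrays and 10.15 and 10.22 on the SKBrM3-labelled arrays. F3, tissue factor, which starts blood clotting, read 11.37 and 11.34 against 9.93 and 9.88, and the interstitial collagenase MMP1 12.49 and 12.57 against 11.41 and 11.24. The neutrophil attractant CXCL1 (1.44) and the calcium-dependent membrane binder ANXA3 (1.02) were the other 2 that were higher. Lower in 231BrM were LRRC8A, a subunit of the volume-regulated anion channel (-1.16), the ribosome biogenesis factor NOP53 (-1.14), the peroxiredoxin PRDX4 (-1.10), the integrin ligand EDIL3 (-1.07) and the ribosomal protein paralogue RPL22L1 (-1.03). Each of these 10 differed by over 2-fold, with standard errors of 0.07 to 0.10.

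Among genes that interferon induces, those called were higher in 231BrM. Interferon switches on antiviral genes, many of which carry a short response element in their promoters. Of 25 tested members, 16 were higher in 231BrM, 0 were lower and 9 were not called, with a median difference of 0.38 against -0.05 over all genes tested. At an unadjusted p under 0.05, 16 were higher and 1 lower, and 1 was called lower without 231BrM doxycycline replicate 1 or 2. With 1 array left out 12 to 17 were called higher. BST2, which tethers budding virions, read 7.14 and 7.30 on the 231BrM arrays and 3.86 and 4.22 on the SKBrM3-labelled arrays. IFITM1, which blocks viral entry, read 8.52 and 8.26 against 4.96 and 5.68, and IFIT2, which binds viral RNA, 6.20 and 6.08 against 3.95 and 4.32. None of these arrays overlap between the lines, as in 76.8% of all genes tested. BST2 differed by 3.18 (standard error 0.20, limma adjusted p = 8.21e-06), a fold limited by the SKBrM3-labelled level, which like that of IFIT2 lies under the filter level. IRF9, the DNA-binding subunit of the interferon-activated complex, was 2.68-fold higher, although its other probe sets gave 0.45 to 0.83. IFIT1 (1.32), IFIT3 (1.23), the factors IRF7 (0.89) and IRF1 (0.65) and the ubiquitin-like ISG15 (0.88) were higher too. OAS3, which makes the activator of RNase L, had a difference of -0.40 and was not called (limma adjusted p = 0.0611).

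The promoters of 3 of these genes are shown because they hold the response element, searched as GAAA, any 2 bases and GAAA on both strands in the 250 bases before the RefSeq start (build GRCh38.p14). Capitals mark the matches, which overlap each other in BST2 and ISG15. BST2 lies at chr19:17405631-17405880 on the minus strand, IFIT1 at chr10:89392373-89392622 and ISG15 at chr1:1013247-1013496, both on the plus strand.
BST2: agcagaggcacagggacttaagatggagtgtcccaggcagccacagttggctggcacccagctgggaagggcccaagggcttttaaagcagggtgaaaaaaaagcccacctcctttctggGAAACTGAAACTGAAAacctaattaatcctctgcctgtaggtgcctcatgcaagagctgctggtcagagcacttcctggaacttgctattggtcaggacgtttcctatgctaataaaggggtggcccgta
IFIT1: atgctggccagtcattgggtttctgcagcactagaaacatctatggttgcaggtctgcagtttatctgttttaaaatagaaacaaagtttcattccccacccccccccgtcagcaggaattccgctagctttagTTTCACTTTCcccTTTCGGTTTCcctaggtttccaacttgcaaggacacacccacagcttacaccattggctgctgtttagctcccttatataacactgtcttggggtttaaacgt
ISG15: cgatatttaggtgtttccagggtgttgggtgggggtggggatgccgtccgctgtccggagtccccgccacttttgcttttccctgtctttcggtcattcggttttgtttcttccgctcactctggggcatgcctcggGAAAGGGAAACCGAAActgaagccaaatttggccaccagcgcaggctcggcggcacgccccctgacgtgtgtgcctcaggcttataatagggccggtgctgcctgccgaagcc
The element was found in 16 of 21 interferon-stimulated genes that matched the promoter table. It stands in 3.02% of all 35116 promoters and in 3.32% of the 10583 tested genes that matched. Of the 16 genes with the element, 10 were called higher and 6 were not called. Of the 5 without it in this window, 3 were called higher and 2 were not. A match describes these letters and not the binding of a factor.

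The called genes of antigen presentation were likewise all higher in 231BrM. Cells show peptides to T cells on class I molecules, loaded by the transporter TAP after cutting by the immunoproteasome, and immune cells also use class II molecules, which need the chaperone CD74 and the loading factor HLA-DM. Of 24 tested members, 15 were higher in 231BrM by limma, 0 lower and 9 not called (15 and 0 at an unadjusted p under 0.05; 1 lower without SKBrM3-labelled replicate 1), with a median difference of 0.56. Class II genes had the largest differences. HLA-DRA read 7.71 and 7.56 on the 231BrM arrays and 4.21 and 4.66 on the SKBrM3-labelled arrays (difference 3.20, limma adjusted p = 2.67e-06). HLA-DMA read 5.59 and 5.70 against 3.96 and 4.17, HLA-DMB 5.23 and 5.04 against 3.98 and 3.69 and HLA-DRB1 6.0 and 5.90 against 4.72 and 4.58. The SKBrM3-labelled arrays were near or under the filter level in all 4. Their arrays do not overlap between the lines, as in 76.8% of all genes tested. CD74 had a difference of 1.04, while CIITA, the class II activator, had -0.21 and was not called (limma adjusted p = 0.122). Of class I and its loading machinery, HLA-C (1.01), HLA-B (0.64), TAPBP (0.95), TAP1 (0.58) and the immunoproteasome subunits PSMB9 (1.22) and PSMB8 (0.53) were higher in 231BrM. HLA-E (0.0074) and the T-cell inhibitor CD274 (-0.065) were not called. HLA genes are near copies of each other, so a probe set may read more than 1 of them.

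Secreted inflammatory signals included more genes higher than lower in 231BrM. Of 21 tested cytokines and chemokines, 11 were higher and 2 lower (CCL20 and CSF3). IL1A, an alarm cytokine, read 8.37 and 8.47 on the 231BrM arrays and 4.39 and 4.49 on the SKBrM3-labelled arrays. IL1B, its secreted relative, read 10.75 and 10.70 against 9.04 and 9.34, and CXCL1 11.54 and 11.61 against 10.11 and 10.15. The lines' arrays do not overlap in any of these, as in 76.8% of all genes tested. IL18 (1.87), IL24 (1.81), IL6 (1.48) and CXCL2 (0.88) were higher as well. CXCL8, the neutrophil attractant interleukin-8, read 11.73 and 11.72 against 11.45 and 11.39, a difference of 0.31 that was lost when any one untreated array was left out (limma adjusted p up to 0.096), and its other probe sets gave 0.091 to 0.10. CCL20, which attracts CCR6-bearing lymphocytes, ran the other way, at 5.17 and 5.27 against 7.05 and 7.43 (difference -2.02, limma adjusted p = 2.41e-05). CSF3 (-0.42) was lower too, but not called without 231BrM replicate 2 (-0.37) or SKBrM3-labelled replicate 1 (-0.41).

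The promoters of CXCL1 and CCL20 are shown since these chemokines differed in opposite directions and both hold a kappa-B site, the element that NF-kB dimers bind, searched as GGNNTTTCC on both strands of the 250 bases before the RefSeq start (build GRCh38.p14). Capitals mark the matches. CXCL1 lies at chr4:73869143-73869392 and CCL20 at chr2:227813592-227813841, both on the plus strand.
CXCL1: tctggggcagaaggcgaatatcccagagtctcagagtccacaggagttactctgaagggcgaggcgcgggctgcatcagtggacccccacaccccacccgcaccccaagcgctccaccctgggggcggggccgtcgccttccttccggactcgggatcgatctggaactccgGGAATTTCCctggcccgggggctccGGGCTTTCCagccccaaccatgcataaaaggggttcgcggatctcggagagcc
CCL20: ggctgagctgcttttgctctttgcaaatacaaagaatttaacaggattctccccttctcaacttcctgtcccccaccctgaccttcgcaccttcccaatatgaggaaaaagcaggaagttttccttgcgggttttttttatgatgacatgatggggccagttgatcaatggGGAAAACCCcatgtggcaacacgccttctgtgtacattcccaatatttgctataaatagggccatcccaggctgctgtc
The site stands in 5.48% of all promoters and 8.07% of the tested genes that matched. It was found in 7 of 13 matched cytokines and chemokines, of which 5 were higher (CXCL1, CXCL2, CXCL8, IL6 and IL32), 1 lower (CCL20) and 1 not called (CXCL3, difference 0.38). Of the 6 without it, 4 were higher in 231BrM, IL1A and IL1B among them. Genes of NF-kB feedback held it in 11 of 16. Of these 11, 4 were called higher and 7 were not called, and of those without it 2 were higher and 3 not called. Of 18 tested members of that list, 8 were higher and 0 lower by limma (9 and 1 at an unadjusted p under 0.05). The number higher was 4 without SKBrM3-labelled replicate 1 or 2 and 5 without 231BrM replicate 1, and the number lower 1 without 231BrM doxycycline replicate 1 or 2. ICAM1, an adhesion molecule for leukocytes, read 7.03 and 6.71 against 5.72 and 5.68. The NF-kB regulators NFKBIZ (0.86), NFKBIE (0.70) and NFKBIA (0.52) were higher in 231BrM, and TNFAIP3, which ends NF-kB signalling, was not called (-0.32).

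Complement and acute phase genes, some of which encode proteins that liver and inflamed epithelium secrete, held 5 higher and 1 lower of 8 tested. Serum amyloid A1, SAA1, read 7.11 and 7.15 on the 231BrM arrays and 3.42 and 3.84 on the SKBrM3-labelled arrays. Complement component C3 read 6.12 and 5.98 against 4.14 and 4.36 and complement factor B, CFB, 6.0 and 5.48 against 4.46 and 4.51. These SKBrM3-labelled levels lie near or under the filter level, without overlap with 231BrM, as in 76.8% of all genes tested. CD55 (0.55) and CD46 (0.49), complement regulators on the cell surface, were higher too. The pentraxin PTX3 was lower in 231BrM, at 10.89 and 10.87 against 11.79 and 11.78. Among 21 tested cytokine receptors, 8 were higher and 5 lower, beside 19.8% and 19.9% of all genes tested. Calls higher in 231BrM numbered 5 without 231BrM replicate 1 or 2 or SKBrM3-labelled replicate 1. Calls lower in 231BrM numbered 1 without 231BrM replicate 1 or 2 or SKBrM3-labelled replicate 2 and 2 without SKBrM3-labelled replicate 1 or SKBrM3-labelled doxycycline replicate 1 or 2. IL13RA2, a decoy receptor for interleukin-13, was 7.59-fold higher in 231BrM, and CXCR4, the receptor for CXCL12, 4.43-fold, with 3.11 to 4.74 log2 units in its other probe sets. IL6ST, the signalling subunit shared by receptors of the interleukin-6 family, differed by 1.06. IL17RA was lower in 231BrM (-0.75), beside IL7R, IFNAR2, IFNGR2 and OSMR, each by under 1.5-fold. In the TNF family 5 of 19 were higher and 1 lower: TNFRSF11B, the decoy receptor osteoprotegerin, differed by 1.81, TNFRSF21 by 0.81 and the costimulatory receptor CD40, the 1 that was lower, by -1.43. With an array left out, those higher numbered 3 without 231BrM replicate 1 or SKBrM3-labelled replicate 1, and the number lower was 2 without 231BrM doxycycline replicate 1 or 2.

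Sterol and fatty acid synthesis held the largest share of lower members in 231BrM among the 44 lists. Cells make cholesterol from acetyl-CoA through mevalonate, and SREBF2 and SREBF1 encode the factors that raise these genes when sterol is low. Of 25 tested members, 16 were lower in 231BrM, 1 was higher (PMVK) and 8 were not called, with a median difference of -0.33. The number lower ran from 11 to 17 with 1 array left out. SCD, which makes monounsaturated fatty acids, read 7.76 and 7.58 on the 231BrM arrays and 10.14 and 10.27 on the SKBrM3-labelled arrays. HMGCS1, which makes the precursor of mevalonate, read 6.45 and 6.68 against 7.85 and 7.70, and IDI1, which isomerises isopentenyl diphosphate, 8.62 and 8.75 against 9.68 and 9.73. The lines' arrays do not overlap in these 3 genes, as in 76.8% of all genes tested. STARD4, a sterol carrier, differed by -0.95, SQLE, which oxidises squalene, by -0.80, DHCR7, of the last step to cholesterol, by -0.83, SREBF2 by -0.61 and the fatty acid synthase FASN by -0.42. SREBF1 (-0.081) and the SREBP retention factor INSIG1 (-0.30, limma adjusted p = 0.0537) were not called. PMVK (0.27) was not called when any one untreated array was left out, and 2 were higher without 231BrM doxycycline replicate 1 or 2. A sterol response element, searched as TCACNCCA, stood in 3 of 23 matched members (MSMO1 and SREBF2, lower, and MVK, not called). It stands in 3.2% of all promoters and 4.06% of the tested genes that matched. Of the matched members without it, 1 was higher, 12 were lower and 7 were not called.

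Genes of DNA replication were called lower in 231BrM more often than higher. In replication, the MCM helicase with CDC45 and the GINS complex opens DNA, POLA1 primes it, and LIG1 and FEN1 join the lagging strand. Of 25 tested members, 13 were lower and 3 higher, with a median difference of -0.39. GINS2, a GINS subunit, read 7.20 and 7.20 on the 231BrM arrays and 8.78 and 8.85 on the SKBrM3-labelled arrays. POLA1 read 7.62 and 7.56 against 9.19 and 9.16 and the ligase LIG1 7.32 and 7.29 against 8.02 and 8.09. None overlap between the lines, as in 76.8% of all genes tested. The replication factor MCM10 differed by -0.77, with -0.25 between the doxycycline arrays. CCNE2, a cyclin of the G1 to S step (0.85), and RRM1, of ribonucleotide reductase (0.59), were higher in 231BrM, with -0.072 to 0.48 in other RRM1 probe sets. Of 25 mitotic genes, 8 were higher and 1 lower. Those called higher came to 4 without 231BrM replicate 1 or SKBrM3-labelled replicate 1 or 2 and 5 without 231BrM replicate 2. The checkpoint kinase BUB1 differed by 0.80, the anaphase activator CDC20 by 0.81 (-0.18 to 0.82 in other probe sets) and the mitotic kinase CDK1 by -0.61. A list of cell cycle inhibitors, p53 targets, D-type cyclins and their kinases held 9 higher and 3 lower of 20. Among the higher were the inhibitors CDKN2D (1.07) and CDKN1B (1.04) and the D-type cyclins CCND3 (0.73) and CCND1 (0.72). Those lower were CCND2, also a D-type cyclin, at -1.09, the kinase CDK4 and BBC3. With an array left out, those lower numbered 1 without 231BrM replicate 1 or SKBrM3-labelled replicate 2. Beside 19.8% and 19.9% of all genes tested, the BCL2 family held 4 higher and 5 lower of 18. It was led by the pro-apoptotic BIK (-0.99), BAX (-0.57) and BOK (0.74). Its number higher was 1 without SKBrM3-labelled replicate 2, 2 without 231BrM replicate 1 or 2 or SKBrM3-labelled replicate 1 and 8 without 231BrM doxycycline replicate 1 or 2, and its number lower 3 without 231BrM replicate 1 or SKBrM3-labelled replicate 1 or 2.

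In energy metabolism the respiratory chain differed in small steps, while some hypoxia and glycolysis genes differed by over 2-fold. Of 22 tested subunits of the respiratory chain and ATP synthase, 11 were lower in 231BrM and 0 higher by limma (12 and 1 at an unadjusted p under 0.05; 3 higher without 231BrM doxycycline replicate 1 or 2), with a median difference of -0.27, and each lay within 2-fold. COX4I1, a subunit of cytochrome c oxidase, read 10.54 and 10.65 on the 231BrM arrays and 11.30 and 11.31 on the SKBrM3-labelled arrays. NDUFA9 of complex I differed by -0.66, NDUFS3 by -0.62 and UQCRC2 of complex III by -0.59. Of 26 hypoxia and glycolysis genes, 14 were lower and 5 higher. Those called lower came to 6 without 231BrM replicate 2 and 8 without SKBrM3-labelled replicate 2, and the number higher 3 without 231BrM replicate 1 or SKBrM3-labelled replicate 1. PDK1, which shuts off pyruvate oxidation, read 6.25 and 6.03 against 7.93 and 8.03, and the carbonic anhydrase CA12 5.66 and 5.29 against 6.70 and 6.89. ADM, the hypoxia-induced peptide adrenomedullin, ran opposite, at 11.48 and 11.48 against 9.40 and 9.33, and so did the glucose carrier SLC2A1 (0.80) and the glycolytic enzyme ENO1 (0.55). Other SLC2A1 probe sets gave 0.14 to 0.74. The glycolytic enzymes TPI1 (-0.34) and PGK1 (-0.29) were lower, so enzymes of the pathway were called in both directions.

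**Figure D3:**
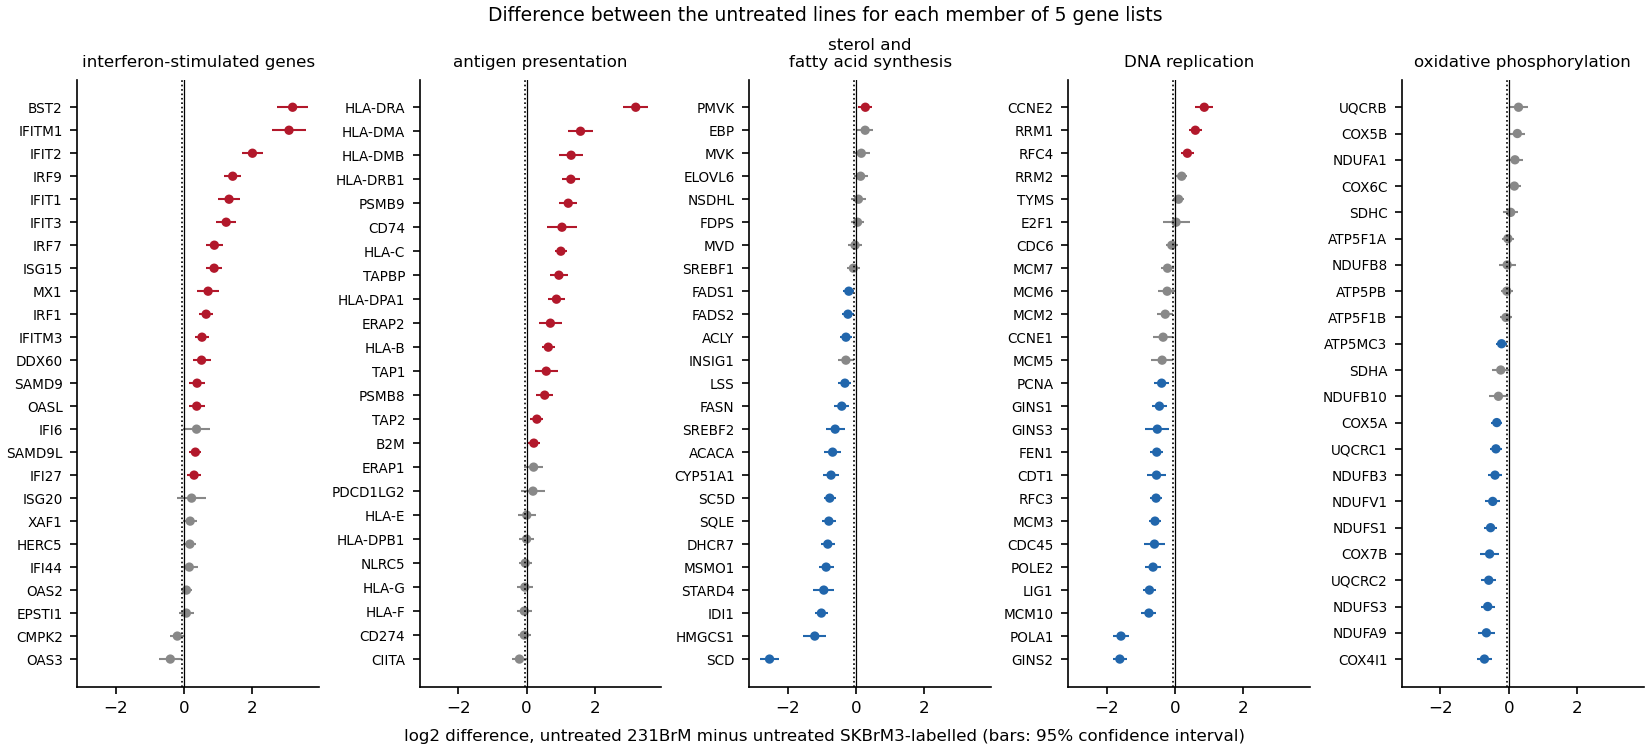
Log2 difference (231BrM minus SKBrM3-labelled, untreated) of every tested member of 5 gene lists, with the 95% confidence interval from limma as a bar; red members were called higher, blue lower, grey not called, and the dotted line is the median of all genes tested, -0.05. In the fit over all 8 arrays the called members lie on 1 side in the interferon-stimulated (16 higher, 0 lower), antigen presentation (15 and 0) and oxidative phosphorylation (0 and 11) lists, and PMVK is the 1 called higher in the sterol list.

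Stress and detoxification genes were mixed. Of 26 genes of the ATF4 amino acid response, 10 were higher and 2 lower (MTHFD2 and SLC7A11). The number higher was 4 without 231BrM replicate 1 and 5 without SKBrM3-labelled replicate 1. The number lower was 0 without 231BrM replicate 2 or SKBrM3-labelled replicate 1 and 1 without 231BrM replicate 1 or SKBrM3-labelled replicate 2. The seryl-tRNA synthetase SARS1 differed by 0.95, the serine synthesis enzyme PHGDH by 0.78 and the lipoprotein receptor VLDLR by 1.20. Of 19 chaperones and response genes of the endoplasmic reticulum, 8 were higher and 3 lower (PDIA6, EDEM1 and SDF2L1). Calls higher in 231BrM numbered 5 without 231BrM replicate 1 or SKBrM3-labelled replicate 1 or 2. Calls lower in 231BrM numbered 0 without 231BrM replicate 2 or SKBrM3-labelled replicate 1 and 1 without 231BrM replicate 1 or SKBrM3-labelled doxycycline replicate 1 or 2. Among the higher were the co-chaperones DNAJB11 at 0.79 and DNAJC3 at 0.85. Of 28 glutathione and xenobiotic genes, 9 were higher and 5 lower. GPX3, an extracellular glutathione peroxidase, read 7.78 and 7.62 on the 231BrM arrays and 5.19 and 5.17 on the SKBrM3-labelled arrays. The glutathione transferases GSTP1 (9.01 and 9.02 against 10.25 and 10.19) and GSTA4 (-1.67) were lower in 231BrM, while GCLM, of glutathione synthesis, was higher (1.11). These calls point both ways within the pathway. Over all genes tested, 19.8% were called higher and 19.9% lower.

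Matrix genes were called in both directions. Of 26 tested collagens and matrix proteins, 13 were higher and 7 lower, and 6 were not called, with a median difference of 0.12. With an array left out, those lower numbered 4 without 231BrM replicate 2 or SKBrM3-labelled replicate 2. THBS2 read 7.89 and 7.69 on the 231BrM arrays and 4.23 and 4.10 on the SKBrM3-labelled arrays, COL12A1, a collagen that decorates fibrils, 8.66 and 8.60 against 5.39 and 5.32, and COL8A1, a short-chain collagen of vessel walls, 10.13 and 10.23 against 8.11 and 8.31. Another COL12A1 probe set gave 0.84. VCAN, at -4.56, was far below in 231BrM, as was, by less, the basement membrane collagen COL4A2 (-0.59) and the anchoring fibril collagen COL7A1 (-0.55). HAS2, which makes hyaluronan, the ligand of CD44, was 8.37-fold higher in 231BrM, a fold limited by the SKBrM3-labelled level of 4.35. Of 29 glycosyltransferases in that list, 8 were higher and 2 lower (GALNT12 and GALNT14). With an array left out, those higher numbered 5 without 231BrM replicate 1, and the number lower 0 without 231BrM replicate 2 and 1 without 231BrM replicate 1 or SKBrM3-labelled replicate 1 or 2. Of 19 laminins and integrins, 8 were higher and 0 lower by limma (10 and 0 at an unadjusted p under 0.05), among them the laminin chains LAMC1 (0.89) and LAMA5 (0.80). Those called higher came to 5 without 231BrM replicate 1.

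Genes of proteases that open matrix and of their inhibitors were called higher in 231BrM more often than lower. Of 20 metalloproteinases and inhibitors, 9 were higher and 3 lower (ADAMTS6, TIMP1 and MMP16). MMP14, a membrane-bound collagenase that also activates other metalloproteinases, read 9.68 and 9.55 on the 231BrM arrays and 8.10 and 8.23 on the SKBrM3-labelled arrays, and the aggrecanase family member ADAMTS1 9.37 and 9.27 against 7.05 and 7.06. MMP3 was 2.74-fold higher from a SKBrM3-labelled level under the filter level. ADAMTS6 ran the other way, at 8.16 and 8.07 against 10.44 and 10.39, as did, by less, the inhibitor TIMP1 (-0.55). The inhibitors TIMP3 (1.17) and TIMP2 (0.65) were among the higher, so inhibitors were called in both directions. In the plasminogen system, in which urokinase and its receptor turn plasminogen into plasmin, 9 of 14 were higher and 1 lower. Urokinase, PLAU, read 11.56 and 11.53 against 10.64 and 10.54, its receptor PLAUR 10.43 and 10.41 against 9.70 and 9.69, and the tissue-type activator PLAT 10.0 and 9.96 against 8.52 and 8.61. No arrays of the lines overlap for these 3, as in 76.8% of all genes tested. The serpins SERPINI1, an inhibitor of the tissue-type activator (1.68), and SERPINB9, an inhibitor of granzyme B (1.60), were higher, and SERPINB7 was lower (-1.90), and the number of calls lower was 2 without SKBrM3-labelled replicate 2. Of 15 cathepsins and cystatins, 7 were higher, with cathepsin S, CTSS, at 6.17 and 6.04 against 4.19 and 4.32 and cathepsin D, CTSD, at 0.67, and 2 were lower, cathepsin H, CTSH (-0.69), and the inhibitor CSTB (-0.43). The SKBrM3-labelled means of SERPINI1 and CTSS and the 231BrM mean of SERPINB7 lay under the filter level.

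On both the epithelial and the mesenchymal list more members were called higher than lower in 231BrM. Of 22 tested epithelial junction and keratin genes, 12 were higher and 2 lower (GRHL2 and KRT80), with a median difference of 0.47. Those called lower came to 0 without 231BrM replicate 1 or 2 or SKBrM3-labelled replicate 1 or 2 and 1 without SKBrM3-labelled doxycycline replicate 1 or 2. CLDN1, a tight junction claudin, read 8.19 and 8.07 on the 231BrM arrays and 4.71 and 4.84 on the SKBrM3-labelled arrays, and desmoplakin, DSP, which ties desmosomes to keratin, 9.97 and 9.75 against 7.78 and 7.68. CLDN1's other probe sets gave 0.66 to 2.20. Of 17 genes of epithelial-mesenchymal transition and contractile mesenchyme, 9 were higher and 1 lower, FN1 (-0.36). MYLK, myosin light chain kinase, read 7.56 and 7.48 against 4.93 and 4.93, the motility-linked S100A4 6.56 and 6.96 against 4.43 and 4.32, and the repressor ZEB2 5.86 and 5.99 against 4.05 and 4.26. The SKBrM3-labelled means of S100A4 and ZEB2 lay under the filter level. The actin-binding protein TAGLN differed by 1.31. FN1 was called in the fit without 231BrM replicate 1 but not without any of the other 3 untreated arrays. Of 10 cadherins and connexins tested, 4 were higher, GJA1 and CDH11 among them, and 1 lower (PCDH1, -0.33, lost without 231BrM replicate 2 or either SKBrM3-labelled replicate). Of 17 S100 proteins and annexins, 7 were higher, with S100A11 at 0.98, and 1 lower, ANXA4 (-0.58), and the number of calls lower was 2 without SKBrM3-labelled replicate 1.

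Genes linked to brain metastasis by published work on such derivatives were not uniformly higher in either line. That list rests partly on MDA-MB-231 derivatives, so it is not independent of the line. Of 21 tested, 10 were higher in 231BrM, 3 lower and 8 not called. The number lower was 1 without 231BrM replicate 2 and 5 without 231BrM doxycycline replicate 1 or 2. PTGS2, which makes prostaglandins, read 6.20 and 5.76 on the 231BrM arrays and 3.79 and 3.91 on the SKBrM3-labelled arrays, and CTSS, SERPINI1, MMP1 and GJA1 were higher as described. The SKBrM3-labelled means of PTGS2, CTSS, SERPINI1 and GJA1 lay under the filter level, so their folds are limited by low signal. L1CAM, which spreads cells along capillaries, differed by 1.01, whereas another probe set of it gave -0.18. RGCC, a cell cycle regulator, was lower in 231BrM, at 4.55 and 4.52 against 5.68 and 6.02. COL13A1 (-0.39) and CSF3 were the other 2 lower, and COL13A1 was not called without replicate 2 of either line (-0.37 and -0.33). The sialyltransferase ST6GALNAC5 was not called (0.31, limma adjusted p = 0.0694), nor was the EGF receptor ligand HBEGF (-0.22).

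MET, the target of the uninduced hairpin, read 9.45 and 9.26 on the 231BrM arrays and 9.26 and 9.20 on the SKBrM3-labelled arrays and was not called (0.13), with -0.63 to -0.057 in its other probe sets and a called difference of -0.22 for the mean of all of them. Around it, 4 of 18 tested pathway genes were higher, a share near the 19.8% of all genes tested, and 0 lower by limma (5 and 1 at an unadjusted p under 0.05). SPINT2, which inhibits the activation of the MET ligand, read 10.49 and 10.57 against 9.14 and 9.15, the adaptor SHC1 10.06 and 10.01 against 8.92 and 9.0, and CBL, which ubiquitinates MET, 9.25 and 9.03 against 8.24 and 8.24. The regulatory PI3-kinase subunit PIK3R1 differed by 0.40, with -0.19 to 0.65 in other probe sets. The number higher was 8 without 231BrM doxycycline replicate 1 or 2, and the number lower 1 without 231BrM doxycycline replicate 1 or 2. Of 26 receptor tyrosine kinases, 7 were higher and 2 lower (TYRO3 and PDGFRA). IGF1R differed by 1.30, FGFR1 by 1.10, ROR1 by 0.81 and TYRO3 by -0.55. The number lower was 1 without 231BrM replicate 2 or SKBrM3-labelled replicate 2. Among EGF-family and angiogenic ligands 7 of 17 were higher and 4 lower. Placental growth factor, PGF, read 7.84 and 7.42 against 5.49 and 5.38, TGFA 7.06 and 6.86 against 5.69 and 5.63, and EREG, also an EGF receptor ligand, ran opposite at 6.76 and 6.56 against 8.59 and 8.41. The other lower ligands were CCN2, PDGFA and PDGFC, each by under 1.5-fold, and the number lower was 1 without 231BrM replicate 1 or 2 and 2 without SKBrM3-labelled replicate 1 or 2.

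Downstream of growth factor receptors, ERK output genes split by member. Of 24 tested, 9 were higher and 3 lower (SPRY4, DUSP5 and DUSP2). The phosphatase DUSP1 differed by 1.61, the ETS factors ETV1 by 1.24 and ETV5 by 1.12, and the phosphatase DUSP5 by -0.76. YAP and TAZ are factors that respond to cell stretch and density, and their list holds them, their TEAD partners and their targets. Of its 21 tested members, 12 were higher and 3 lower (DLC1, TEAD4 and CCN2), with GADD45A at 1.15. YAP1 itself differed by 0.59, while WWTR1, which encodes TAZ, was not called (-0.13). Of the partners, TEAD1 differed by 1.08 and TEAD4 by -0.51. Another TEAD1 probe set gave -0.069. The TGF-beta and BMP list held 9 higher and 11 lower of 29. BMP4 read 7.95 and 7.90 on the 231BrM arrays and 6.27 and 6.12 on the SKBrM3-labelled arrays, INHBA, a subunit of activin, 7.33 and 7.16 against 8.43 and 8.32, and ID2, a target of BMP signals, 3.46 and 3.40 against 4.95 and 4.80. BMP2 (-1.13) ran opposite to BMP4. The 231BrM levels of ID2 and BMP2 lay under the filter level. Of 29 Wnt and Notch genes, 9 were higher and 6 lower. Calls lower in 231BrM numbered 2 without SKBrM3-labelled replicate 2 and 3 without 231BrM replicate 1 or 2 or SKBrM3-labelled replicate 1. The R-spondin receptor LGR4 read 8.04 and 7.92 against 5.67 and 5.65, the Wnt effector LEF1 differed by 1.34 and the Notch ligand JAG1 by -0.87.

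Axon guidance, neuronal and homeobox genes were called in both directions, with shares called higher near the 19.8% of all genes tested, of which 19.9% were called lower. Of 27 semaphorins, plexins and other axon guidance genes, 7 were higher and 3 lower (SEMA3A, NTN4 and PLXNA2). ROBO1, the receptor of SLIT proteins, read 7.66 and 7.73 on the 231BrM arrays and 4.66 and 4.43 on the SKBrM3-labelled arrays, with 0.55 in another probe set, and its ligand SLIT2 differed by 1.36. The repellents SEMA3A (6.69 and 6.64 against 8.61 and 8.70) and NTN4 (-1.95) were lower in 231BrM. Of 13 neuronal surface genes, 3 were higher and 1 lower, SLITRK4 (-1.39), and the number of calls lower was 2 without 231BrM doxycycline replicate 1 or 2. The homeobox list held 4 higher and 2 lower of 16, with MEIS2 at 0.72 and HOXC8 at -0.89. Calls higher in 231BrM numbered 2 without 231BrM replicate 2 or SKBrM3-labelled replicate 2. Of the 30 cancer-testis genes listed, 4 were tested and 1, PAGE5, was called. Of 26 carriers and channels, 8 were higher and 3 lower, among them the potassium channels KCNK1 (2.04) and KCNN4 (1.12) and the amino acid carrier SLC43A1 (-0.84). The number of carriers and channels higher was 5 without 231BrM replicate 1, and the number lower 6 without 231BrM doxycycline replicate 1 or 2. Of the genes named in these lists without a value, BBC3, CCN2, CDK4, EDEM1, GALNT12, GALNT14, IFNAR2, IFNGR2, IL7R, KRT80, MMP16, MTHFD2, OSMR, PDGFA, PDGFC, PDIA6, PLXNA2, SDF2L1, SLC7A11 and SPRY4 were not called when at least 1 of the untreated arrays was left out.

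**Figure D4:**
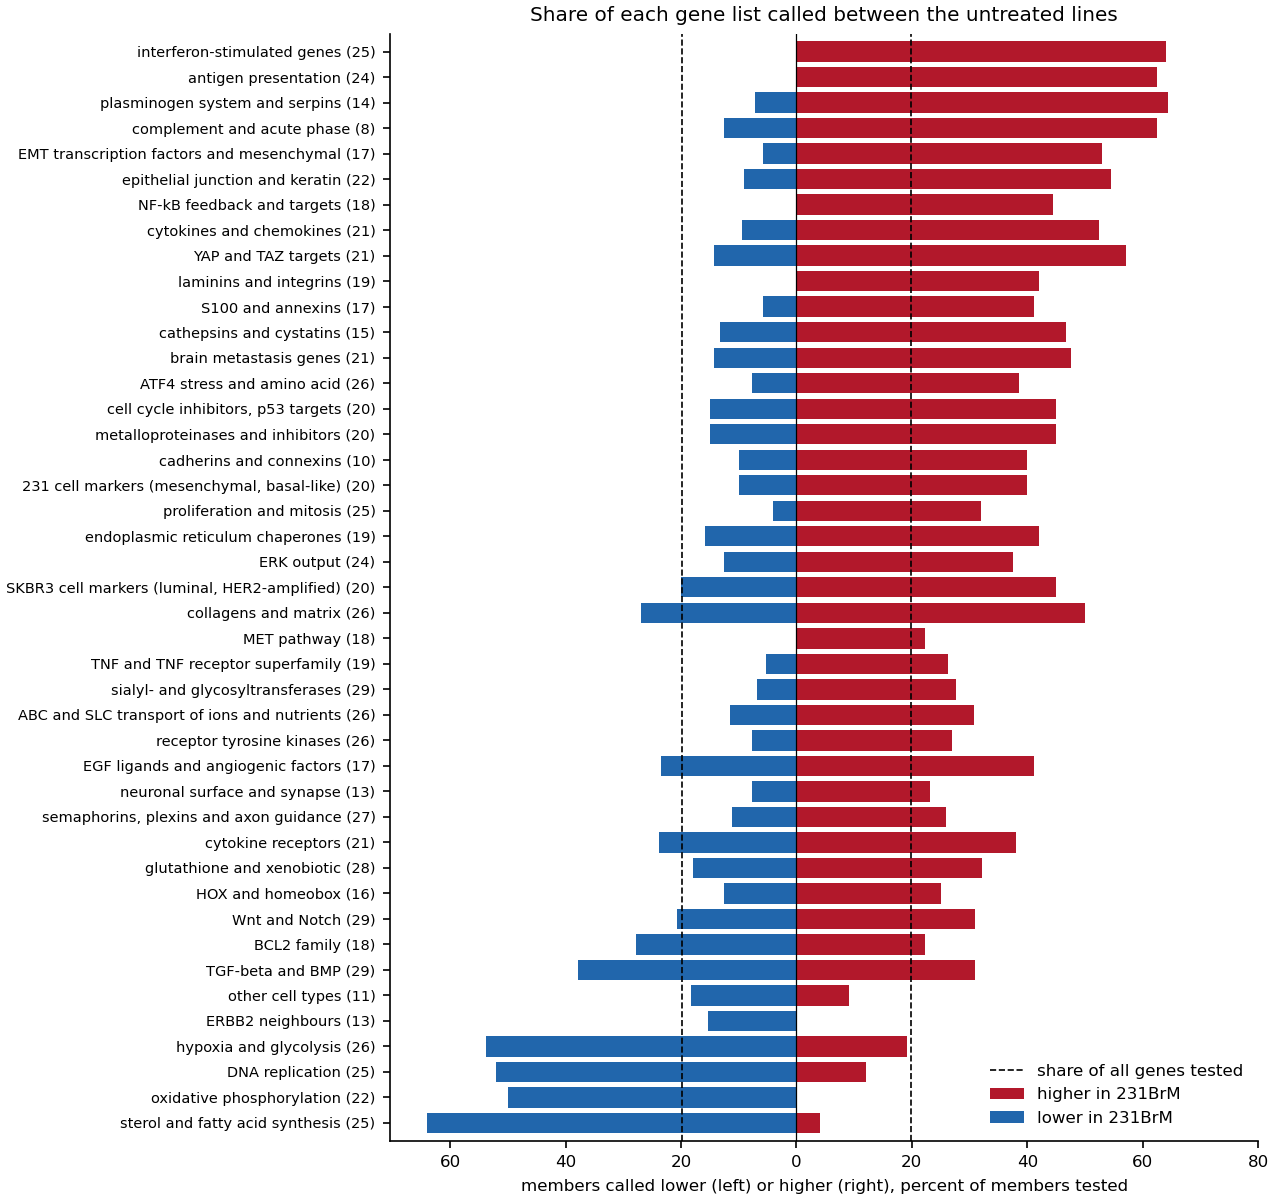
Share of the tested members (number in brackets) of each list with 8 or more tested members that was called higher (red, right) or lower (blue, left) in untreated 231BrM, in percent; dashed lines mark the shares over all genes tested, 19.8% higher and 19.9% lower. Interferon-stimulated genes (64% higher), antigen presentation and complement (62.5% each) and the plasminogen system (64.3%) extend farthest right, and sterol and fatty acid synthesis (64% lower) farthest left.

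The doxycycline arrays give the same comparison on other arrays of these lines, in which the inducer is present in both. In the fit over all 8 arrays 5403 genes (41.6%) were called there, and in a fit of those 4 arrays alone 3985 (30.6%). Of the 5167 genes called without doxycycline, 4957 (95.9%) had the same sign with it. In the fit of the 4 doxycycline arrays alone, 3347 of these 4957 were called too. Of the 703 over 2-fold, 702 had the same sign and 690 were called in that fit. With doxycycline, ADGRF5 differed by 6.07, LCP1 by -4.81, BST2 by 3.69, HLA-DRA by 4.03 and SCD by -2.22. By list, interferon-stimulated genes had 14 higher and 1 lower, antigen presentation 13 and 0, sterol and fatty acid synthesis 3 and 12, and oxidative phosphorylation 2 and 9, again in the fit over all 8 arrays. HMGCS1 differed by -0.34 and STARD4 by -0.083 there, against -1.21 and -0.95 without doxycycline. The change of the line difference itself was called for 3 genes (0.0231%), the chemokines CXCL1, CXCL2 and CXCL8. Among the doxycycline arrays 231BrM replicate 1 had an actin 3' minus 5' signal of 1.24 log2 units, against 0.46 to 0.58 on the other 3, and 68 genes differed by over 2-fold between the 231BrM doxycycline replicates. Leaving out either 231BrM doxycycline replicate raised the number of calls with and without doxycycline. Either omission leaves that group without a spread of its own, so these fits cannot tell the replicates apart.

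Neighbouring genes tended to differ in the same direction. On chromosome 1, 39.8% of 1310 genes tested were higher in 231BrM and 6.03% lower, and on chromosome 4, 37.4% and 11.2% of 447. On chromosome 16, 5.23% were higher and 33.3% lower of 574, and on chromosome 9, 14.3% and 33.3% of 510. The tested genes were cut into 249 runs of 50 to 61 neighbours, in the order of the RefSeq gene table. In 31 runs the median difference was above 0.2, and in 22 it was below -0.2. The lowest run lay at the start of chromosome X, from PLCXD1 to PPEF1, with a median of -0.67 and 36 of 54 genes called lower. On chromosome 16, the run from GFOD2 to IST1 had -0.47 and the next, from PKD1L3 to CRISPLD2, -0.40, each with 33 of 52 lower. On chromosome 19, from EIF3G to ZNF625, the median was 0.49, with 33 of 53 higher and 0 lower, and on chromosome 1, from SSX2IP to SLC35A3, 0.48, with 38 of 50 higher. These runs were chosen after their values were seen and are given without a test. Between the doxycycline arrays the same 5 runs had medians of -0.71, -0.45, -0.40, 0.44 and 0.53.

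**Figure D5:**
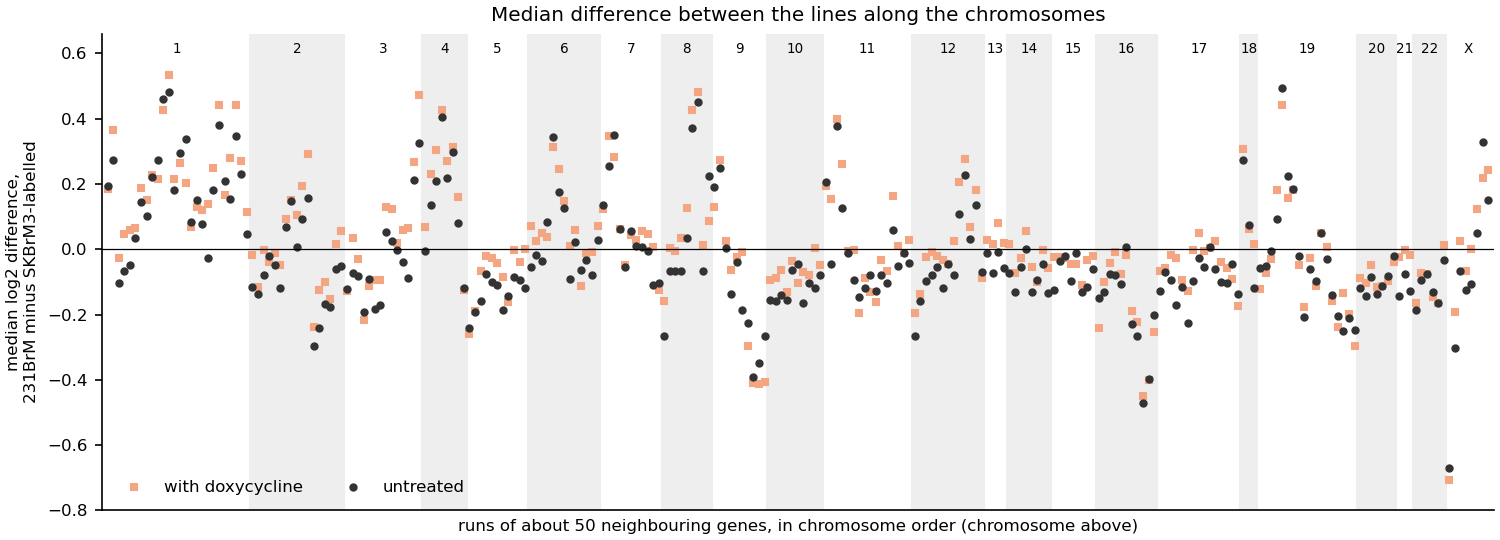
Median log2 difference (231BrM minus SKBrM3-labelled) of each of 249 runs of about 50 neighbouring tested genes, in chromosome order, with dark circles for untreated and pale squares for doxycycline arrays, and with alternate chromosomes shaded. The first run of chromosome X lies lowest at -0.67 untreated, and with doxycycline at -0.71.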

How the data were processed

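Each of 8 Affymetrix arrays, 2 per group, measured total RNA. The deposited values are log2 values per probe set, which the authors made with RMA, per the submitters' processing notes. The RMA version, array definition and genome build are not given in these sources. RMA equalises the distribution between arrays, so a change in total RNA cannot be seen, and low values have no measured background. Of 49386 probe sets, 93 are controls, 45253 name 1 gene, 1327 several and 2713 none. Symbols of 45172 were updated by gene ID through RefSeq (GRCh38.p14, for names and promoters), and 81 were kept. Where several probe sets named a gene, the one of highest mean over 8 arrays stood for it (18239 genes).

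The fit used limma 3.58.1 in R 4.3.3 (lmFit, eBayes) with 4 group means over 8 arrays (4 residual and 4.60 prior degrees of freedom), two-sided, with Benjamini-Hochberg adjustment over 13002 genes. The number of arrays limits the precision (median standard error 0.097). The steps were tested on simulated data. The members and the 44 gene lists were chosen with earlier results of these data known. Named by rule were MET and 3 inflammatory genes (CXCL8, CXCL1, IL1B), the 15 called genes with the largest difference in each direction, up to 4 called members per list and direction, the line markers and 5 abundant genes per direction. The 15 were taken among genes whose untreated arrays do not overlap between the lines, leaving out genes of the Y chromosome and XIST. Other list members named were chosen after their values were seen. Alternatives were other filters, probe set rules, scalings, array weights, each array left out and a replicate block.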

Additional observations from a re-analysis of the deposited data

Results flagged for a closer look

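For 3 genes the difference between the lines was not the same without and with doxycycline, by limma's test of that change over 13002 genes (0.0231% called). For CXCL1 the difference was 1.44 untreated and 2.92 with doxycycline, a change (untreated minus doxycycline) of -1.48 (limma adjusted p = 0.0114). For CXCL2 it was 0.88 and 2.11, a change of -1.22, and for CXCL8 0.31 and 1.58, a change of -1.27, with the same adjusted p. All 3 are chemokines that attract neutrophils, and in each the difference was the smaller one in the untreated cells. Both lines carry the hairpin per the series design, so drug and hairpin cannot be told apart here.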

How the results depend on the processing

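The count of called genes was 5167, and it ran from 3323 to 6575 with 1 array left out (1686 to 3174 higher, 1583 to 3401 lower; over 2-fold, 442 to 510 higher and 232 to 244 lower). It was smallest without 231BrM replicate 1 (3323) and SKBrM3-labelled replicate 2 (3434); lower calls were 1637, 1583 and 1599 without 231BrM replicate 1, 231BrM replicate 2 and SKBrM3-labelled replicate 2. The count fell whichever untreated array was left out. Leaving out an array leaves 1 in its group, assumed to vary like the others. The doxycycline count ran from 3694 to 6092. Testing every probe set on its own called 9638 (4946 higher and 4692 lower, 999 and 488 of them over 2-fold). The mean of all probe sets gave 306 higher over 2-fold instead of 470, and OSMR, at -0.41 in the probe set used, became 0.0155. CXCL8 fell to 0.17 (limma adjusted p = 0.194) there. Centring arrays on the median moved the median of all genes to -0.09 and the share of higher calls from 49.9% to 43.7%. The cause of these shifts was not tested. The other settings kept these counts within 1.5 times. Arrays of the same number in the untreated lines did not deviate together (correlation of deviations -0.058), and over the 6 pairs of groups it ran from -0.11 to 0.24, the highest between untreated and doxycycline 231BrM. With the replicate block the count was 5113 over 8 arrays and 6507 over the 4 untreated arrays. Low signal limits 101 of the 703 differences over 2-fold.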
